A study of Mus musculus with 24 samples.

Results

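Among the 12 standard-housed hippocampal libraries of the series, 3 carried a high level of Ttr (transthyretin), the secreted thyroid hormone carrier that marks the choroid plexus epithelium. The libraries were chosen by that level alone, as CPM (1e6 times the count of a gene over the sum of the counts on genes), with a threshold of 300 CPM. Library 2 (MSK1 KD SH) and libraries 11 and 12 (both WT SH) lay above it and are called choroid-rich below. The other 9 libraries, 4 WT SH and 5 MSK1 KD SH, are called choroid-poor. The whole series holds 24 libraries.

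Each library was made from poly-A RNA of whole hippocampus of a mouse that the labels give as 12 weeks old. WT SH stands for wild-type mice in standard housing (n = 6 libraries), and MSK1 KD SH for mice in standard housing that carry an inactivating point mutation of a kinase domain of MSK1, the mitogen- and stress-activated kinase of the nucleus (n = 6 libraries). All mice were on a C57-Bl/6J background. The KD allele is germline and homozygous, so it is present in every cell, and the 2 genotypes were bred as separate lines. The other 12 libraries came from mice of the same genotypes raised in an enriched environment (WT EE and MSK1 KD EE, 6 libraries each), of which 2 failed the study's quality control. Of the choroid-rich libraries, the study left out 2 and 12 for low correlation within their groups and kept 11. The numbers in the labels name single libraries and are not shared between groups, and p-values below measure the spread between these libraries.

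The choroid plexus is a sheet of ciliated secretory epithelium around a core of stroma and leaky capillaries that floats in the ventricles of the brain. Its epithelium makes cerebrospinal fluid by moving ions and water, and it secretes carrier proteins such as transthyretin. A frond of this tissue lies in the lateral ventricle along the hippocampus, attached at the fimbria.

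The level of Ttr was 2646 CPM in library 2, 1671 CPM in library 12 and 685 CPM in library 11. In the choroid-poor libraries it was between 17.04 CPM (library 5) and 135 CPM (library 4), with a median of 35.9 CPM. The choroid-poor libraries nearest the threshold were 4 and 3 (127 CPM), and the choroid-rich library nearest to it was 11, so no standard-housed library lay between 135 and 685 CPM. Since the libraries were selected on Ttr, its levels are a description. In whole tissue, more cells of a type and more RNA per cell cannot be told apart.

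**Figure D1:**
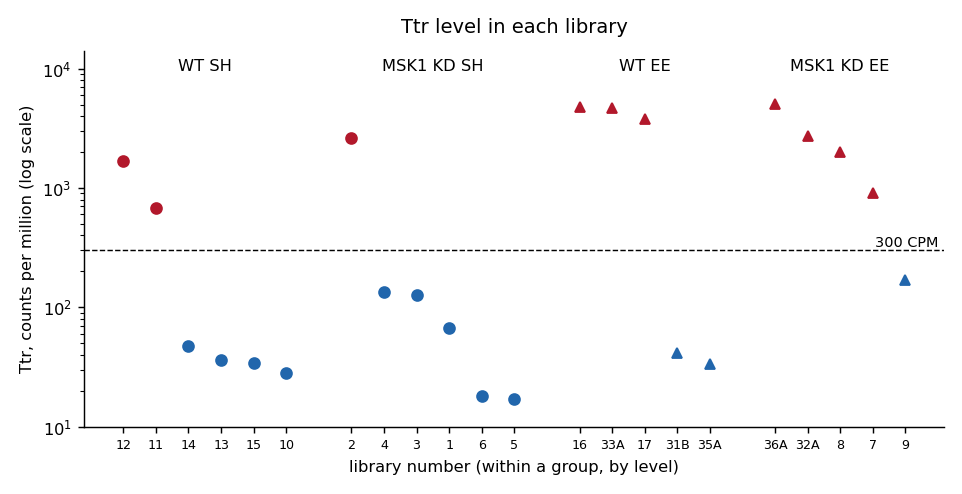
Level of Ttr (y axis, CPM, log scale) in the 12 standard-housed libraries (circles) and the 10 enriched libraries that passed quality control (triangles), by group on the x axis. Red symbols lie at or above the dashed line at 300 CPM and blue symbols below it; libraries 2, 11 and 12 are the 3 red circles.

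The 12 libraries held between 18187696 and 54292242 counts on genes, and a count of 3 stood for between 0.0553 and 0.165 CPM. The choroid-rich libraries lay within this range (23197006 to 47291601). The share of all entries of the count files, summary lines included, that fell on no gene was 10.4 to 11.3% in the choroid-rich libraries and 10.05 to 12.3% in the choroid-poor. Mitochondrial genes took 3.89 to 5.61% of counts in the choroid-rich and 3.73 to 7.17% in the choroid-poor libraries. The level of Rps6ka5, which encodes MSK1, averaged 24.6 ± 1.92 CPM over the WT SH libraries and 25.5 ± 2.09 CPM over the MSK1 KD SH libraries (SD, n = 6 each), and a point mutation need not alter it. No pair of libraries within a group had identical counts.

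Of 18907 genes with at least 10 counts in at least 3 of the 12 libraries, 83 (0.439%) were higher in each choroid-rich library than in each choroid-poor library and at least 2-fold higher by the ratio of medians. In the opposite direction, 20 genes (0.106%) were lower without overlap and at least 1.3-fold. With no minimum fold, 324 genes (1.71%) were higher and 121 (0.64%) lower without overlap. Leaving out single libraries moved these counts: without library 11, 158 genes were higher, of which 80 were among the 83, and without libraries 2, 11 or 12 in turn, 126, 84 and 79 genes were lower. Leaving out library 1, 5 or 15 gave 36, 31 and 32 lower genes. A rule of no overlap is easier to pass with fewer libraries, above all with 1 of the 3 choroid-rich left out. Part of these rises therefore comes from the rule itself. The split was made on Ttr in the same libraries, so nothing in this contrast was tested and these counts, in which Ttr itself is included, are descriptions. Of the 83 higher genes, 33 belonged to 5 lists of choroid epithelial genes that held 53 genes, of which 52 were detected. A further 7 belonged to a list of 8 genes of the choroid stroma and its vessels, 1 to a list of motile cilium genes, and 42 to no list. In 67 of the 83 genes the order of the levels was library 2, then 12, then 11, which is the order of Ttr. Library 11 was the lowest of the 3 in 74 genes, library 2 the highest in 70 and library 12 the highest in 9. Of these 83 genes, 82 had a position in the GENCODE M21 annotation of GRCm38, on 20 chromosomes, and 78 encode proteins.

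The 83 genes together took 0.522% of the counts in library 2, 0.345% in library 12 and 0.167% in library 11. In the choroid-poor libraries they took 0.0389 to 0.0654%. Ttr made up 50.7% of their summed counts in library 2, 48.5% in library 12 and 40.9% in library 11, and between 3.86 and 21.1% in the choroid-poor libraries.

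**Figure D2:**
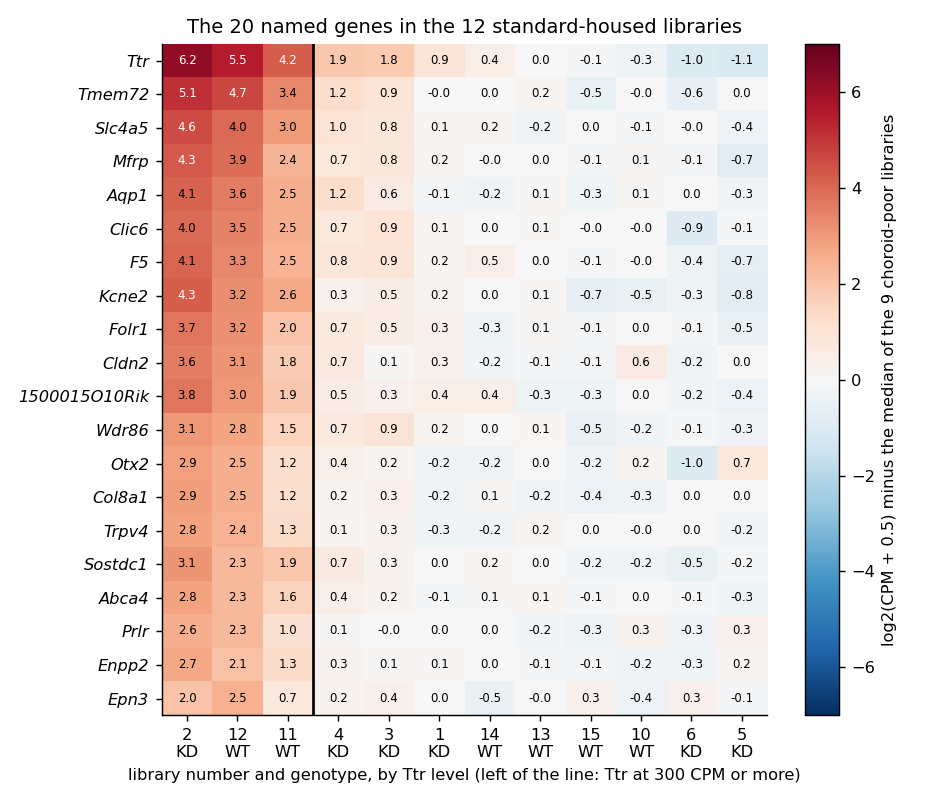
The 20 genes with the largest difference among those higher without overlap (rows), in the 12 standard-housed libraries ordered by Ttr (columns, library number and genotype). Color and numbers give log2(CPM + 0.5) minus the median of the 9 choroid-poor libraries; all values left of the vertical line are positive, and libraries 4 and 3 have the highest value among the choroid-poor libraries for most genes.

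Secreted and carrier proteins were higher without overlap and at least 2-fold in 9 of 11 detected genes, with a median difference of 1.84 on the log2(CPM + 0.5) scale, here called log2, against a median of 0.0087 over all detected genes. Ttr, on which the split was made, is 1 of the 9, and without it 8 of 10 were higher, with a median of 1.74. Over the 5 epithelial lists without Ttr, 32 of 51 detected genes were higher, with a median of 1.53. Enpp2, the secreted phospholipase autotaxin (GRCm38, chromosome 15, 54838901 to 54952892), was at 1391 CPM in library 2, 885 CPM in library 12 and 525.7 CPM in library 11, against 174 to 253 CPM in the choroid-poor libraries (median 213). The groups did not overlap, although autotaxin mRNA is also made by oligodendrocytes. Kl, which encodes the transmembrane and shed protein klotho, was at 119 CPM in library 2, 81.8 CPM in library 12 and 47.7 CPM in library 11, against 13.97 to 26.0 CPM (median 20.3). The growth factor gene Igf2 was at 127, 126 and 62.6 CPM in libraries 2, 12 and 11, against 33.4 to 54.0 CPM (median 40.0), so library 11 lay close to the highest choroid-poor library. For F5, coagulation factor V, the 3 levels were 44.2, 26.0 and 13.8 CPM against 1.10 to 4.35 CPM (median 2.105), a 12.4-fold ratio of medians. Sostdc1, a secreted inhibitor of BMP and Wnt signaling, was 5.79-fold higher by the ratio of medians and Ace, the angiotensin-converting enzyme, 3.70-fold. Bmp6, a bone morphogenetic protein gene, overlapped, with 7.07 CPM in library 11 against up to 7.404 CPM in the choroid-poor libraries. Pon1 was not detected, with at most 0.378 CPM in any of the 3.

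The transporters that move ions, water and solutes across the epithelium were higher in 10 of 16 detected genes, with a median difference of 2.06 (log2). Slc4a5, an electrogenic sodium bicarbonate cotransporter (chromosome 6, 83219828 to 83304945), was at 22.8 CPM in library 2, 14.6 CPM in library 12 and 7.07 CPM in library 11. In the choroid-poor libraries it was at 0.2199 to 1.37 CPM, with a median of 0.467, so the lowest choroid-rich library was above each of them. Aqp1, the water channel of the apical membrane (chromosome 6, 55336432 to 55348555), was at 18.3, 12.3 and 5.69 CPM in libraries 2, 12 and 11, against 0.367 to 1.98 CPM (median 0.5645). The potassium channel subunit gene Kcne2 was at 17.99, 8.64 and 5.47 CPM in the same libraries, against 0.0550 to 0.9025 CPM (median 0.466). Folr1, which encodes the folate receptor that passes folate to the cerebrospinal fluid (chromosome 7, 101858331 to 101870788), was at 25.2, 17.2 and 7.29 CPM against 0.825 to 2.54 CPM (median 1.42). Clic6, a chloride channel family gene, was 12.98-fold higher by the ratio of medians, the calcium-permeable channel gene Trpv4 6.78-fold, the lipid transporter gene Abca4 5.61-fold and the sulfate transporter gene Slc13a4 2.55-fold. Of the 6 others, 3 did not overlap but stayed under 2-fold. Slc4a2, an anion exchanger gene, was at 39.8 to 58.8 CPM in the choroid-rich and at 25.8 to 33.8 CPM in the choroid-poor libraries, Slc29a4 at 40.4 to 50.5 against 18.4 to 38.6 CPM, and the copper transporter gene Slc31a1 at 21.6 to 39.9 against 16.8 to 20.7 CPM. Car12 and Slc39a4 overlapped, and so did Oca2 through library 11 (0.517 against up to 0.575 CPM).

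Receptors and other membrane proteins were higher in 6 of 10 genes, with a median difference of 1.53 (log2). Tmem72, a membrane protein gene of little known function (chromosome 6, 116679063 to 116716913), had the largest difference after Ttr, 4.66 (log2), with 30.5 CPM in library 2, 21.9 CPM in library 12 and 8.66 CPM in library 11. In the choroid-poor libraries it was at 0.0847 to 1.56 CPM, with a median of 0.385. Mfrp, a frizzled-related membrane protein gene (chromosome 9, 44101729 to 44109187), was at 23.0, 17.2 and 5.73 CPM in libraries 2, 12 and 11 against 0.2199 to 1.58 CPM (median 0.685). Prlr, the prolactin receptor gene, was at 33.2, 26.7 and 11.2 CPM against 4.01 to 6.38 CPM (median 5.19). None of these overlapped. Htr2c, the serotonin 2C receptor gene, which neurons also express, overlapped, with 53.0 to 70.2 CPM in the choroid-rich and 39.3 to 54.7 CPM in the choroid-poor libraries. Trpm3 and Crhr2 did not overlap but were under 2-fold, and Cab39l overlapped.

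Genes of epithelial junctions and keratins were higher in 6 of 8, with a median difference of 1.13 (log2). Cldn2, the pore-forming claudin of leaky epithelia (chromosome X, 139800828 to 139811386), was at 15.4 CPM in library 2, 10.8 CPM in library 12 and 4.05 CPM in library 11. In the choroid-poor libraries it was at 0.621 to 1.65 CPM, with a median of 0.825, and the groups did not overlap. The intermediate filament genes Krt18 and Krt8 were 5.71-fold and 2.77-fold higher by the ratio of medians. Cldn1 was higher without overlap at 1.44-fold, and Perp overlapped, with 3.10 CPM in library 11 against up to 3.19 CPM.

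Transcription factors of the choroid plexus and dorsal midline were higher in 2 of 7 genes, with a median difference of 0.35 (log2). Otx2, a homeobox gene of the choroid plexus epithelium (chromosome 14, 48657677 to 48673819), was at 10.95 CPM in library 2, 8.64 CPM in library 12 and 3.19 CPM in library 11, against 0.3105 to 2.14 CPM (median 1.08). Lmx1a, a homeobox gene of the roof plate, was at 1.90, 1.22 and 1.38 CPM against 0.0675 to 0.501 CPM. Msx1 was higher without overlap at 1.88-fold, while Msx2, Foxj1, Rfx2 and Mycl overlapped; Foxj1 and Rfx2 direct motile cilia, which ependymal cells also carry.

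OTX homeodomain proteins bind the letters TAATCC, or GGATTA on the other strand, and these were searched in the 250 bases before each RefSeq gene start. Of the 83 genes, 56 had a promoter in the table of GRCm38.p6 sequences, and 7 of these (12.5%) held the motif on either strand. Among all 27025 genes with a promoter, 7.21% held it. Of the 20 genes with the largest difference, 13 had a promoter and 3 held the motif, namely Abca4, Mfrp and an internal start of Otx2 itself. A match of letters is a description and not a binding site. The stretches before Abca4 (chr3:122044210-122044442, plus strand) and Mfrp (chr9:44101520-44101728, plus strand) are shown without the bases that lie in annotated exons, with the motif in capitals. Both genes and Otx2 were picked because they separated with Ttr, so their higher levels in the same libraries follow from that choice. Whether the Otx2 product acts on either gene was not tested. The match before Otx2 lay in an annotated exon and is not shown.
Abca4: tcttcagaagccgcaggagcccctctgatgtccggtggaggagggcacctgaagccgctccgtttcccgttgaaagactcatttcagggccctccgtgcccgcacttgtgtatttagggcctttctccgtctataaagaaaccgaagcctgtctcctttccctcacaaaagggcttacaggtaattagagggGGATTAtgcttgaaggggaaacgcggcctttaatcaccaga
Mfrp: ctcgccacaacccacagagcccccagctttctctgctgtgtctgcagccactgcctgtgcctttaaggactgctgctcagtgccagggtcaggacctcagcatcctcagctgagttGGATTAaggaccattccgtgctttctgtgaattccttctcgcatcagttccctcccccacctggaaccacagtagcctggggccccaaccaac

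**Figure D3:**
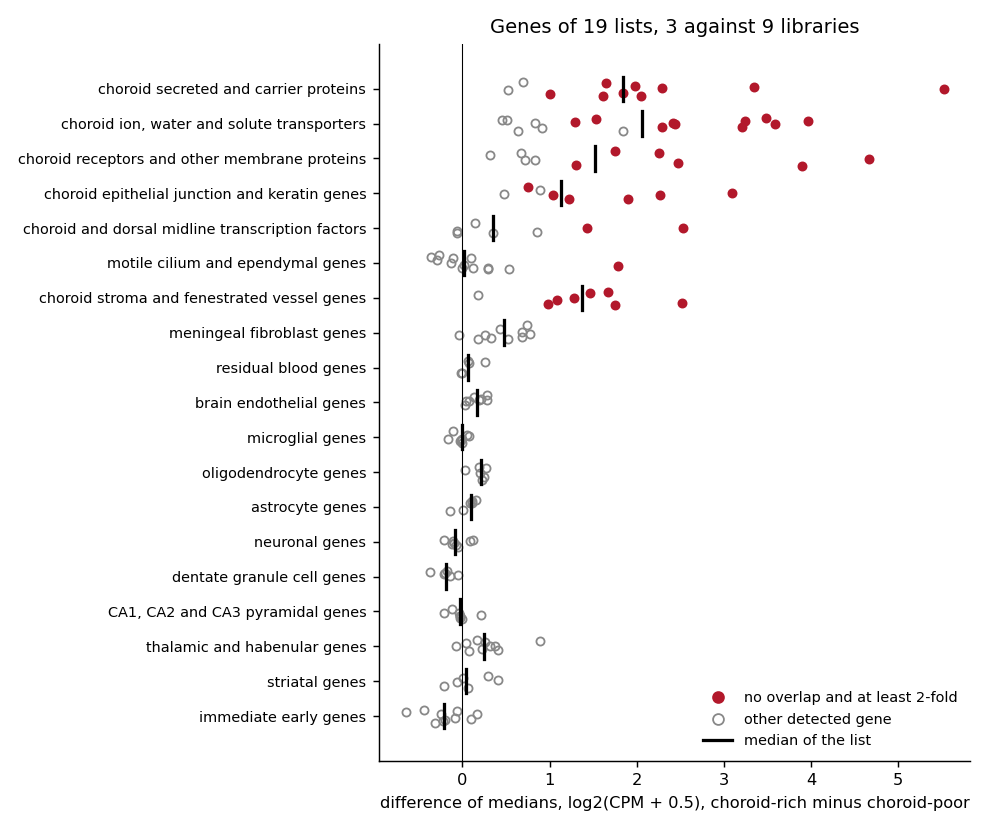
Difference of medians between the 3 choroid-rich and the 9 choroid-poor libraries (x axis, log2(CPM + 0.5)) for each detected gene of 19 lists (rows). Red points are genes higher without overlap and at least 2-fold, open points the others, and black bars the list medians; the red points lie in the 5 choroid epithelial lists and the stroma list, apart from Drc7 among the cilium genes.

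Motile cilium and ependymal genes, which mark the lining of the ventricle next to the choroid plexus, had a median difference of 0.02 (log2), and 1 of 13 was higher without overlap and at least 2-fold. That gene was Drc7, a subunit of the regulatory complex of motile axonemes, at 19.5 CPM in library 2, 14.6 CPM in library 12 and 8.23 CPM in library 11 against 3.19 to 5.41 CPM. Rsph1, a radial spoke gene, did not overlap at 1.25-fold. The other 11 overlapped, among them Ccdc153 at 3.31 to 7.08 CPM against 4.97 to 7.83 CPM and Hydin at 4.70 to 7.59 CPM against 4.05 to 7.95 CPM. The summed level of the list was 86.7 CPM in library 2, 56.8 CPM in library 12 and 46.5 CPM in library 11, against 43.1 to 55.2 CPM in the choroid-poor libraries. Library 12 stood above the choroid-poor range only with Drc7 included in the sum.

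The list named for the choroid stroma, its basement membranes and its vessels was higher in 7 of 8 genes, with a median difference of 1.37 (log2). Col8a1, which encodes a chain of the short-chain collagen VIII, was at 13.9 CPM in library 2, 10.2 CPM in library 12 and 3.75 CPM in library 11. In the choroid-poor libraries it was at 0.901 to 1.86 CPM, with a median of 1.37, and the groups did not overlap. Col9a3, a collagen IX chain gene, was at 43.2, 41.3 and 23.8 CPM against 9.66 to 15.2 CPM (median 12.7). Pcolce, an enhancer of procollagen processing, was 2.58-fold higher by the ratio of medians, and Nid2, a basement membrane nidogen gene, 2.08-fold. Plvap, which marks fenestrated endothelium, overlapped, with 8.82 to 9.61 CPM in the choroid-rich and 7.67 to 9.56 CPM in the choroid-poor libraries. The 7 higher genes were thus collagen chain genes, Pcolce and Nid2, and the marker of the vessels was not among them. Whether these transcripts came from stroma or from epithelium cannot be told from whole tissue and was not tested.

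Meningeal fibroblast genes were at least 2-fold higher without overlap in 0 of 10 (0.439% over all detected genes), with a median difference of 0.48 (log2). The fibrillar collagen genes Col1a1, Col1a2 and Col3a1 did not overlap, at 1.65-fold, 1.74-fold and 1.84-fold by the ratio of medians. The small leucine-rich proteoglycan gene Dcn was at 49.97 to 58.9 CPM in the choroid-rich and 26.9 to 64.7 CPM in the choroid-poor libraries. The summed level of the list was 108 to 150 CPM against 71.9 to 117 CPM.

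Lists of the other cell types that a hippocampal dissection can hold had no gene higher or lower at the set folds. Over all detected genes 0.439% were higher and 0.106% lower, so the absence of a call in lists this short is near the overall share. Hemoglobin and Alas2 transcripts, from blood left in the vessels, summed to 43.1 to 81.9 CPM in the choroid-rich and 37.0 to 75.4 CPM in the choroid-poor libraries, with a median difference of 0.06 (log2). The median difference was 0.16 for brain endothelial, −0.01 for microglial, 0.10 for astrocyte and −0.09 for neuronal genes. It was 0.21 for oligodendrocyte genes, of which the myelin gene Mag did not overlap (216 to 249 CPM against 149 to 199 CPM), and 0.24 for thalamic and habenular genes. It was −0.19 for dentate granule cell genes, −0.03 for CA pyramidal genes and −0.21 for immediate early genes. None of these lists was tested. Neuronal genes summed to 9717 to 10714 CPM in the choroid-rich and 10132 to 10898 CPM in the choroid-poor libraries, and the libraries therefore held the markers of the labelled tissue on each side of the threshold.

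In library 12, thalamic and habenular genes stood apart as a list, though not in every member, together with the choroid genes. Their summed level was 478 CPM in library 12, against 203 CPM in library 2, 161 CPM in library 11 and 125 to 210 CPM in the choroid-poor libraries. Prkcd, a protein kinase C gene of thalamic relay neurons, was at 154 CPM in library 12 and at 20.3 to 38.2 CPM in the other 11. Tcf7l2, a transcription factor gene of the thalamus, was at 36.5 CPM in library 12 and at 3.33 to 5.40 CPM in the others. Of the same list, Tac2 was at 2.98 CPM in library 12, within the choroid-poor range of 2.46 to 4.47 CPM. Calb2 was at 44.0 CPM in library 12, below library 2 (60.2 CPM) and near the highest choroid-poor library (43.7 CPM). Library 12 had the highest summed level of oligodendrocyte genes too (6653 CPM, against 5446 to 5977 CPM in the other choroid-rich and 4879 to 6315 CPM in the choroid-poor libraries). Of the choroid-poor libraries, 14 was high for striatal genes, with 159 CPM against 64.4 to 92.4 CPM in the other 11. The part of thalamic or striatal tissue in the results was not tested. Without libraries 12 and 14, 100 genes were higher, of which 80 were among the 83.

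The genes that set each choroid-rich library most apart from the other 2 differed between them. In library 2 these were Prg4 (lubricin), Ctxn3, Postn (the matrix protein periostin), C3 (complement component 3) and Calml4, of which Calml4 reached 10.7 CPM against at most 4.87 CPM in the other 2 and 2.01 CPM in the choroid-poor libraries. In library 11 they were Col6a4, Gm43305, Mid1, Ndst4 and Vgll3, and the level of each lay within or less than 1.5 times above the range of the choroid-poor libraries. In library 12 the gene with a known product was Shox2, a homeobox gene expressed in the thalamus, at 15.1 CPM against at most 0.660 CPM in the other 11. The other 4 in library 12 were the predicted genes Gm10800, Gm21738, Gm10801 and Gm26870, whose reads can come from repeated sequence, and library 13 held Gm10800 too, with 349 CPM against 610.0 CPM in library 12.

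Of the 42 higher genes in no list, 3 were among the 20 genes with the largest difference. The gene listed as 1500015O10Rik, which encodes the secreted peptide augurin, was at 33.1 CPM in library 2, 19.8 CPM in library 12 and 8.88 CPM in library 11 against 1.37 to 3.00 CPM (median 1.99). Wdr86 was at 7.76, 6.33 and 2.41 CPM against 0.2003 to 1.38 CPM. Epn3, an epsin gene of the endocytic coat, was at 11.8, 16.8 and 4.57 CPM against 1.68 to 3.41 CPM, with its highest level in library 12. Chosen after their values were seen, Sulf1, a heparan sulfate endosulfatase gene, was 3.04-fold, Lbp, the lipopolysaccharide-binding protein gene, 2.78-fold and Lepr, the leptin receptor gene, 2.12-fold higher by the ratio of medians. Some of the 42 were low. The lowest choroid-rich medians were those of RP23-337J18.2 (0.317 CPM), 2810433D01Rik (0.336 CPM), Gm37077 (0.378 CPM) and Loxl4 (0.431 CPM). A count of 3 stood for 0.0553 to 0.165 CPM over the 12 libraries. Over all 83 genes, 38 had a median of at least 5 CPM in the choroid-rich libraries.

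The 20 lower genes (0.106% of all detected genes) included none of the 165 genes in the lists, which at that share is no result about the lists. None of the 20 had a median of 5 CPM or more in the choroid-poor libraries. The highest of them, chosen after its value was seen, was the predicted gene Gm20754, at 3.02 to 3.41 CPM in the choroid-rich and 3.46 to 4.65 CPM in the choroid-poor libraries. Of 2 more chosen in the same way, Rsl1, a KRAB zinc finger gene, was at 2.01 to 2.43 CPM against 2.60 to 3.05 CPM. Fat2, a protocadherin gene, was at 0.168 to 0.216 CPM against 0.346 to 1.05 CPM. Its levels in the choroid-rich libraries were close to the floor of 3 counts (0.0553 to 0.165 CPM over the 12 libraries). Rps6ka5 itself was among the 121 genes that were lower at any fold, with 22.1 to 22.4 CPM in the choroid-rich and 24.5 to 28.0 CPM in the choroid-poor libraries.

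For 37 of the higher genes, those other than Ttr with a median of at least 5 CPM in the choroid-rich libraries, the level above the choroid-poor median was divided by that of Ttr. Of these genes, 21 were in the choroid epithelial lists, 5 in the stroma list, 1 in the cilium list and 10 in no list. They were picked because they separated with Ttr, and choroid genes that overlapped or stayed under 2-fold were left out. For Folr1 this gave 9.11, 9.63 and 9.05 CPM per 1000 CPM of Ttr in libraries 2, 12 and 11, although Ttr itself differed widely between them. For Kl it gave 38.0, 37.6 and 42.2, and for Aqp1 6.79, 7.17 and 7.90. The highest of the 3 libraries was within 1.5-fold of the lowest in 28 of the 37 genes and within 2-fold in 34, with a median of 1.34-fold. The 3 others were Mdfic (2.11-fold), Igfbp2 (2.13-fold), an insulin-like growth factor binding protein gene, and Epn3 (2.77-fold), and the last 2 were highest in library 12. The collagen gene Col9a3 was at 17.5 and 17.1 in libraries 12 and 11 and at 11.7 in library 2. These ratios were compared over 3 libraries and were not tested.

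**Figure D4:**
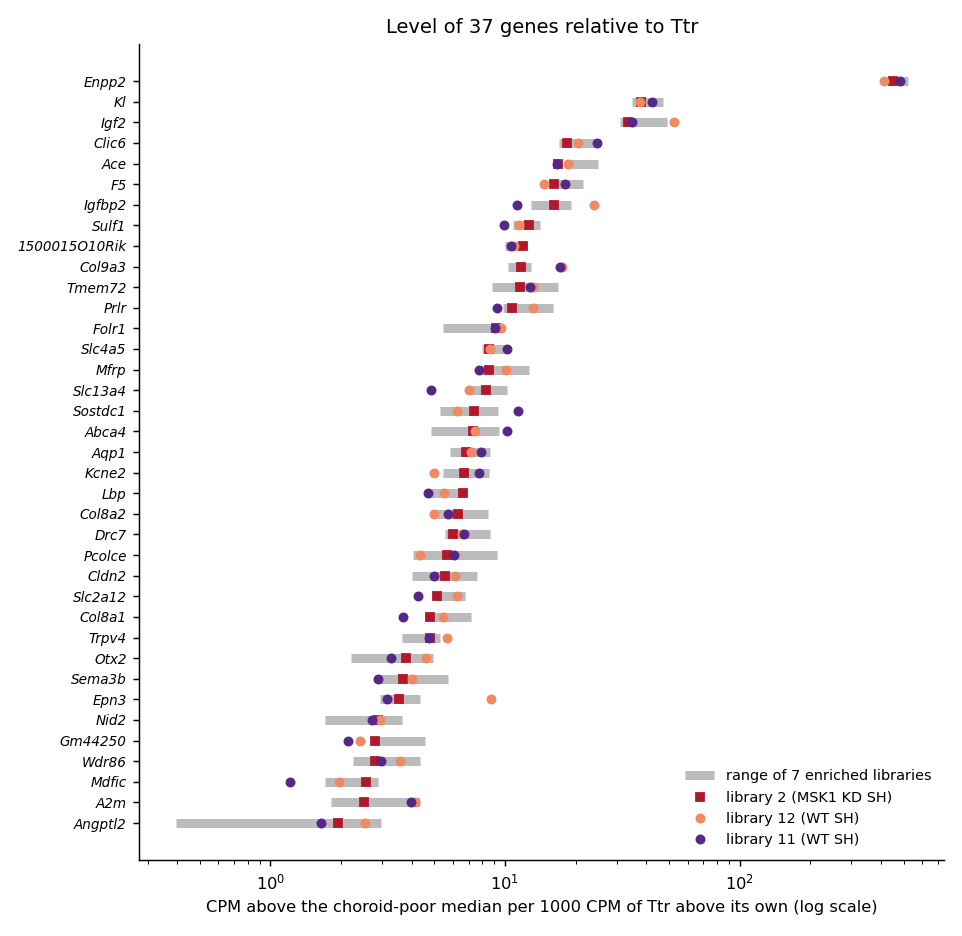
CPM above the choroid-poor median per 1000 CPM of Ttr above its own median (x axis, log scale) for 37 genes (rows), in the 3 choroid-rich standard-housed libraries (symbols) and as the range of 7 enriched libraries at or above 300 CPM of Ttr (gray bars). The 3 symbols of a gene lie within 1.5-fold of each other for 28 genes; Epn3 in library 12 stands farthest from the other 2.

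Among the 9 choroid-poor libraries, which the threshold did not split, the level of Ttr still ranged from 17.04 to 135 CPM. The choroid score, the mean log2(CPM + 0.5) of the 52 choroid genes other than Ttr, followed it, with Pearson r = 0.943 (exact permutation p = 0.00038, Benjamini-Hochberg adjusted p = 0.0026 over 20 relations) and Spearman rho = 0.933 (exact permutation p = 0.00075, adjusted p = 0.0075). Without libraries 4 and 3, which lay farthest from the median of Ttr, r was 0.824 over 7 libraries (exact permutation p = 0.0232), which over the 20 relations no longer passed (adjusted p = 0.243). The lists were chosen with earlier results of these data known, and Ttr is the gene of the split. The p-values of the choroid lists are therefore not an independent check. Of the 5 choroid lists, the secreted proteins (r = 0.928), transporters (r = 0.936), receptors (r = 0.848) and transcription factors (r = 0.798) passed an adjusted p of 0.05 by Pearson's r, and the junction genes (r = 0.721, exact permutation adjusted p = 0.0892) did not. By Spearman's rho only the secreted proteins (0.917) and transporters (0.950) passed. Without libraries 4 and 3, r was 0.775 for the secreted proteins and 0.809 for the transporters. It was 0.506 for the receptors, 0.535 for the junction genes and 0.633 for the transcription factors. The stroma list, which was separated in the choroid-rich libraries, gave r = 0.591 (exact permutation adjusted p = 0.202) and r = −0.573 without libraries 4 and 3. The 13 lists of other cell types and states gave r between −0.628 (immediate early genes) and 0.716 (meningeal fibroblasts), none of which passed. The value for meningeal fibroblasts was close to that of the choroid junction genes and stayed at 0.715 without libraries 4 and 3. The relation was thus not particular to the choroid lists in size. Libraries 4 and 3 are both MSK1 KD SH, and no relation was computed within a genotype, with 5 choroid-poor libraries in MSK1 KD SH and 4 in WT SH.

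**Figure D5:**
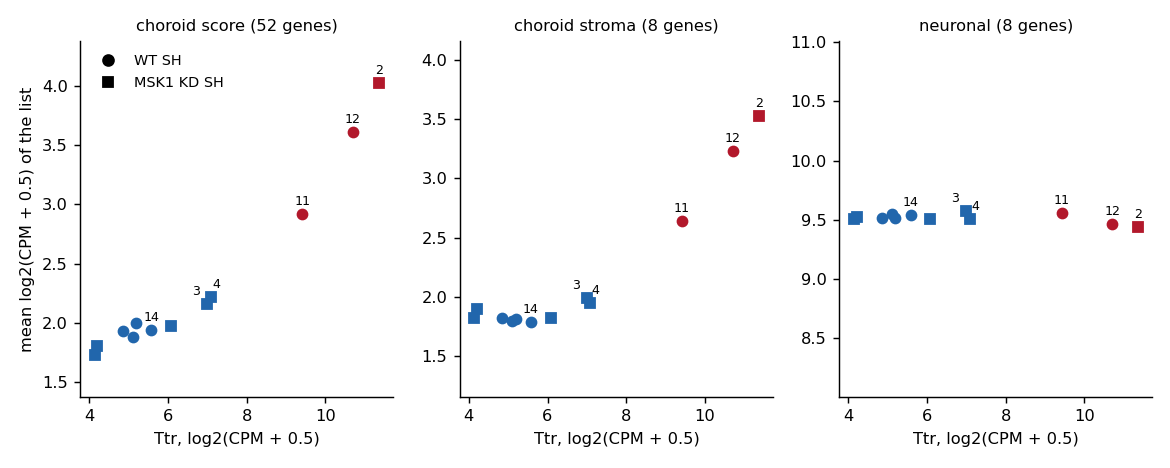
Mean log2(CPM + 0.5) of 3 gene lists (y axes, each spanning the same number of units) against Ttr (x axes, log2(CPM + 0.5)) in the 12 standard-housed libraries; circles are WT SH, squares MSK1 KD SH, red choroid-rich and blue choroid-poor, with some library numbers. The choroid score rises with Ttr among the blue points too, the stroma list lies apart in the red points, and the neuronal list spans a narrow band.

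The level of the choroid genes other than Ttr was compared between genotypes over all 12 libraries. The choroid score averaged 2.38 ± 0.72 over the WT SH libraries and 2.32 ± 0.86 over the MSK1 KD SH libraries (log2, SD, n = 6 each), a difference of 0.06 (two-sided exact permutation test over all assignments, p = 0.909). The mean of log2(CPM + 0.5) of Ttr was 6.81 ± 2.56 in WT SH and 6.65 ± 2.65 in MSK1 KD SH (SD, n = 6 each), a difference of 0.16 that is given as a description, since the libraries were selected on Ttr. The smallest p this design allows is 0.0022. The difference of the choroid score turned negative when library 1, 5, 6, 11 or 12 was left out, with exact permutation p of at least 0.740. In the edgeR quasi-likelihood fit of WT SH against MSK1 KD SH over 17571 genes, 0 genes (0%) were called, and 1084 had an unadjusted p under 0.05. Adjusted values reached 0.761 at the lowest, for Rpl22l1, Hbb-bt, Gkn3, Cstb and Rdm1 among others. DESeq2 called 0 genes too, with 1327 of 33765 tested at an unadjusted p under 0.05. Fits without the 3 choroid-rich libraries, without libraries 2 and 12, or with the choroid score as a covariate called 0 genes as well. At an unadjusted p under 0.05 they had 780 of 17851, 904 of 17582 and 1245 of 17571 genes.

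The same genes were then read in the enriched libraries, which had no part in choosing them. Of the 10 that passed quality control, 7 were at or above 300 CPM of Ttr (905 to 5090 CPM) and 3 below it (33.4 to 168 CPM). This split uses Ttr again, so it was described and not tested. Of the 83 genes, 67 (80.7%) were higher without overlap and at least 2-fold in the 7 than in the 3, and these made up 30.6% of the 219 genes (1.16% of 18907) that were so. The median was higher in 81 of the 83, a count for which no share over all genes was computed. Among the 16 genes not separated there were Cldn3, Col17a1, Angptl2, Lepr and Tns4. Tmem72 was at 8.07 to 78.0 CPM in the 7 enriched libraries with high Ttr, a range that held all 3 choroid-rich standard-housed libraries. Aqp1 was at 6.92 to 39.1 CPM in the 7, and library 11 lay below them. For 32 of the 37 genes, the median ratio to Ttr in the choroid-rich standard-housed libraries lay within the range of the 7 enriched libraries, for 1 gene above it and for 4 below it. For Otx2, for example, the ratio was 3.78 CPM per 1000 CPM of Ttr in library 2, 4.63 in library 12 and 3.26 in library 11, against 2.21 to 4.92 in the enriched libraries.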

How the data were processed

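Poly-A RNA from whole hippocampus was sequenced as 24 libraries, 6 in each of 4 groups. Adapters were removed with Skewer by the authors, who then used STAR (version 2.5, per the labels) on GRCm38 and HTSeq, unstranded and on unique alignments, with Ensembl gene symbols. The deposited files hold these raw counts for 49568 gene symbols per library, with no normalization. Reads of antisense, overlapping and near-identical genes were assigned by that counting and could not be separated again. A deposited table of scaled counts of the 17 libraries that the study used was not used here.

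From the counts, CPM was computed as 1e6 times the count of a gene over the sum of the counts on genes, without further scaling. Log values are log2(CPM + 0.5), so that differences of low genes are understated. The 12 standard-housed libraries were split at 300 CPM of Ttr. Genes with at least 10 counts in at least 3 of them counted as detected, and a gene counted as higher when every choroid-rich library lay above every choroid-poor library and the median was at least 2-fold higher (lower, at least 1.3-fold). This contrast was not tested. Genotypes were compared with edgeR 4.0.16 in R 4.3.3 (filterByExpr, TMM, quasi-likelihood test, Benjamini-Hochberg adjustment, thresholds of 0.05 on adjusted p and 0.38 on the size of the log2 fold change), with DESeq2 1.42.0 as an alternative. Scores and correlations were tested by exact permutation in Python 3.11.15 with scipy 1.17.1, two-sided. The scripts were tested on simulated data.

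The libraries and the 19 gene lists (165 genes, all in the files) were chosen with earlier results of these data known. The genes named were those of the lists, the 20 with the largest difference (median of at least 5 CPM in the choroid-rich libraries), up to 10 with the largest fall at the same level, the 5 that set each choroid-rich library most apart, the 5 with the lowest adjusted p between genotypes, and Rps6ka5. Gene positions came from GENCODE M21 (GRCm38) and promoters from RefSeq (GRCm38.p6). The alternatives were other scalings (TMM and DESeq2 size factors), pseudocounts, filters, folds and thresholds on Ttr, and leaving out each library. The depth of each library is given as its total count on genes, and floors cover counting error only.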

Additional observations from a re-analysis of the deposited data

Results flagged for a closer look

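In 44 tests of single libraries against the other 5 of their group (20 list scores, Ttr and Rps6ka5 in WT SH and in MSK1 KD SH), 11 gaps passed Dixon's 95% limit of 0.625 of the group's range for 6 libraries. Chance gives about 1 in 20, and lists that share a tissue are not independent of each other. Libraries were called choroid-rich by Ttr, so gaps in the choroid and stroma scores are not independent of that choice. The count of 11 is therefore a description and cannot be set against the rate of 1 in 20.

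Library 2 lay above the other MSK1 KD SH libraries in 8 scores. It is the only choroid-rich library of that group, so its gaps in the choroid scores follow from the choice by Ttr and are descriptions. Its gap was 0.787 of the range for the choroid score, where it was at 4.02 and the others at 1.73 to 2.22 (log2). It was 0.753 for the secreted proteins, 0.757 for the transporters, 0.819 for the receptors, 0.850 for the junction and keratin genes, and 0.719 for the transcription factors. For the stroma genes it was 0.899, with 3.52 in library 2 and 1.82 to 1.99 in the others. For the motile cilium and ependymal genes it was 0.675, with 2.66 in library 2 and 1.803 to 2.08 in the others.

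In WT SH 2 libraries are choroid-rich, and the gap to the nearest library cannot set either apart from the rest by the choroid scores. Library 12 was set apart for the thalamic and habenular genes (0.783 of the range, 4.95 against 2.98 to 3.41) and the oligodendrocyte genes (0.641, 9.20 against 8.78 to 8.93). Library 14 was set apart for the striatal genes (0.801, 4.39 against 2.95 to 3.24).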

How the results depend on the processing

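The count of 83 higher genes became 324 with no minimum fold, 40 at 4-fold, 176 without a filter on low counts, 19 with a threshold of 100 CPM of Ttr (libraries 3 and 4 then count as choroid-rich) and 147 at 1000 CPM (library 11 then counts as choroid-poor). The count of 20 lower genes became 121, 7, 35, 2 and 71 under the same settings, of which the 4-fold setting used 2-fold for lower genes, and 3 over genes with a mean of at least 1 CPM. Scaling by TMM or DESeq2 size factors kept both counts within 1.5-fold. Leaving out each library in turn gave 81 to 158 higher and 23 to 126 lower genes. The rule of no overlap is easier to pass with fewer libraries, so higher counts come in part from the rule itself. The highest count of higher genes came without library 11 (158, of which 80 were among the 83), and that of lower genes without library 2 (126), with 84 without 11, 79 without 12, 36 without 1, 32 without 15 and 31 without 5. Chosen after seeing the data, leaving out libraries 12 and 14 gave 96 lower genes, and leaving out libraries 3 and 4 gave 90 higher and 29 lower genes.

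The difference of the choroid score between genotypes ranged from −0.183 to 0.404 over the 12 libraries left out, and was −0.183 without 12, −0.045 without 11, −0.055 without 5, −0.039 without 6 and −0.0061 without 1. That of Ttr ranged from −0.616 (without 12) to 1.11, and was −0.359 without 11, −0.339 without 5 and −0.324 without 6. The exact permutation p of the choroid score was between 0.355 and 0.996 in these and the other settings tried. The genotype fit called 0 genes in all 20 alternatives, with lowest adjusted p from 0.104 (DESeq2) to 0.997. The relation of the choroid score to Ttr among the choroid-poor libraries kept r of 0.937 to 0.942 with other pseudocounts and TMM factors, and had r of 0.824 (adjusted p = 0.243) without libraries 4 and 3. The 67 genes repeated in the enriched libraries became 39 at 100 CPM of Ttr and 67 to 77 with each library left out. No paired analysis was possible because the library numbers are not shared between the groups compared.

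Depth limited the low genes: at a floor of 3 counts, levels under 0.0553 to 0.165 CPM were not detectable in these libraries. The choroid-rich side holds 3 libraries, of which 1 is MSK1 KD SH, and genotypes were not compared within it.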
